A study of Danio rerio with 4 samples.

Results

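The contacts described here join a 15.6 kb stretch of zebrafish (Danio rerio) chromosome 3, called the window, to the high-coordinate end of the assayed globin domain, called the high flank. They were measured by 5C, in which cross-linked chromatin is cut and religated and each read reports that 1 forward and 1 reverse primer were joined. All primer pairs with one primer midpoint in the window and the other in the high flank were taken, whatever their counts. The rule gave 462 of the 6699 primer pairs in the matrices. In danRer7 coordinates the window ran from R174 to F210 (55946389 to 55961946, 14 forward and 13 reverse primers), and the high flank ran from F263 to R316 (55992481 to 56027595, 14 forward and 20 reverse primers). F and R stand for forward and reverse primers and the number is that of the files. The distance between the primer midpoints of a member pair was 31.2 to 81.0 kb, with a median of 51.8 kb.

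Blood was taken from adult fish for 2 libraries and from 18-day-old larvae for 2, and all 4 were fixed with formaldehyde (2%, 10 min) and amplified over 28 PCR cycles. No genotype, strain or adult age was given in the labels, and no treatment other than a lethal dose of tricaine, an anaesthetic, before bleeding. The labels speak of biological replicates but do not say whether a stage's 2 libraries were made from separate pools of fish, so p-values measure the spread between these libraries only. Blood holds several cell types, no expression was measured, and a difference between stages cannot be told apart from a difference in the cells that made up the blood.

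The red cells of fish are nucleated, so the folding of the domain can be read from circulating cells. The genes of this domain code for the alpha and beta chains of haemoglobin. Embryos and larvae use one set of globin genes and adults another, a change known as globin switching. Enhancers of globin genes are known to act through contacts over distance, and contact frequency in chromatin falls as distance grows. In a RefSeq gene table of another assembly (GRCz12tu) the adult genes from hbaa2 to hbba1 follow nprl3, and hbbe1.1 through hbae3, which serve embryos and larvae, lie beyond si:ch211-5k11.8, before kank2. Which of these genes lie in the window or the high flank in danRer7 was not determined here.

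The adult libraries held 65450 (replicate 1) and 38494 (replicate 2) counts in all, and the larvae libraries 20801 and 6539. Levels are given as CPM, counts per 1000000 counts of the library. Where no read was seen, up to 3 counts remain possible, or 45.8 and 77.9 CPM in the adult libraries and 144 and 459 CPM in the larvae libraries. These limits and all intervals cover counting error only, because reads amplified by PCR carry no molecular identifiers here and may copy the same molecule. The larvae libraries are shallow, and 35 member pairs had reads in larvae replicate 2.

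Window to high-flank contacts were a larger share of the reads in larvae. The member pairs had 790 and 482 counts in the adult libraries, replicate 1 before 2 as in all values here, against 489 and 115 in the larvae libraries. This was 1.21% (95% exact binomial interval 1.12 to 1.29%) and 1.25% (1.14 to 1.37%) of all counts in adults. It was 2.35% (2.15 to 2.57%) and 1.76% (1.45 to 2.11%) in larvae. The mean share (± SD, n = 2 each) was 1.23% ± 0.032 in adults, against 2.05% ± 0.42 in larvae, which is 1.67-fold higher in larvae, and the libraries of the 2 stages did not overlap. Such a gap was common: of the 15 classes of contacts between the 5 blocks of the domain, 6 were higher in larvae and 7 in adults with no overlap. One pair, F275-R182, gave much of the difference. Without it the shares were 1.21% and 1.25% in adults and 1.61% and 1.41% in larvae, which still did not overlap and were 1.23-fold higher in larvae. No test was run on these single values, since the exact permutation test of 2 against 2 libraries cannot go below p = 0.333 (two-sided).

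The part of the high flank's own reads that went to the window overlapped between the stages. All pairs with an end in the high flank took 11.1% and 11.5% of the counts in adults, against 19.6% and 17.2% in larvae. Of these high-flank counts, 10.9% and 10.9% went to the window in adults, and 12.0% and 10.2% did so in larvae, so that the stages overlapped. Without F275-R182 the order was the opposite, with 10.9% and 10.9% in adults against 8.51% and 8.36% in larvae. Seen from the window, the difference between stages was larger. Pairs with an end in the window took 46.3% and 44.2% of all counts in adults, against 29.4% and 24.3% in larvae. Of these, 2.61% and 2.83% went to the high flank in adults and 8.00% and 7.24% in larvae, a 2.80-fold higher part in larvae. Without F275-R182 this part was 5.59% and 5.88% in larvae, 2.11-fold higher than in adults.

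**Figure D1:**
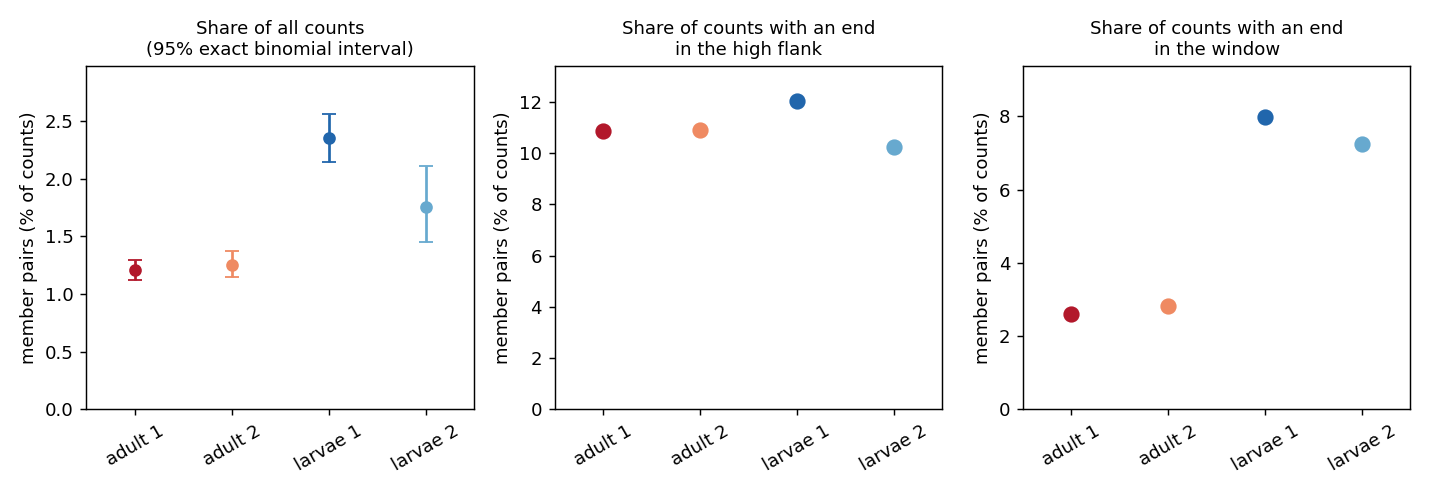
Counts of the 462 window to high-flank pairs in each library as a percentage of all counts (left, with 95% exact binomial intervals), of counts with an end in the high flank (middle) and of counts with an end in the window (right). Both larvae libraries lie above both adult libraries on the left (2.35% and 1.76%, adults 1.21% and 1.25%) and on the right, and the stages overlap in the middle.

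The members were also set beside the 2 classes most like them. Contacts of the high flank with the stretch between it and the window (55962070 to 55991705) took 3.62% and 3.87% of counts in adults and 6.68% and 6.41% in larvae. For each count in that class there were 0.333 and 0.323 member counts in adults and 0.352 and 0.274 in larvae, so the ratio overlapped between stages. Contacts of the window with the low-coordinate flank (55888613 to 55942960) went the other way, with 12.2% and 11.4% in adults and 8.84% and 5.14% in larvae. For each count in that class there were 0.0987 and 0.109 member counts in adults and 0.266 and 0.342 in larvae, which did not overlap. These ratios were not tested. F275-R182 gave 156 of the 489 and 23 of the 115 larval member counts in them. Without it both larval values of the first ratio would fall below both adult values, so that overlap rested on this pair.

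Few member pairs had any read: 99 of the 462 (21.4%), against 29.6% of the other pairs in the same range of distance, with the 3 strongest pairs of the matrices left out (all 3 lie outside the member class). The other 363 had none in any library. Of the 99, 86 (86.9%) had reads in one stage only, and of those other pairs with reads 85.5% did, so the members lie near that share. In adults 62 pairs had reads and in larvae 50, and 13 pairs had reads in both stages, which is 21.0% of the adult pairs and 26.0% of the larval pairs. Among those other pairs in the range of distance the values were 17.6% and 45.6%. They were 31.5% and 38.1% for the high flank with the stretch between it and the window, and 21.1% and 59.8% for the window with the low-coordinate flank. Within a stage the libraries shared more: 54 of the 62 adult pairs had reads in both adult libraries, and 27 of the 50 larval pairs had reads in both larvae libraries. Pairs with no larval read held 62.5% of the adult member counts, and pairs with no adult read held 79.8% of the larval member counts. Without F275-R182 the larval value was 71.3%. Among the other pairs in that range of distance these values were 65.5% in adults and 34.1% in larvae. Whether the libraries of a stage share a template, and so the same set of ligation products, was not tested. In the members, the chi-square of counts between the libraries of a stage over its degrees of freedom was 1.57 in adults and 3.37 in larvae, beside 2.00 and 3.08 over all pairs. Counting error alone would give about 1.

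A few pairs carried the signal in each library. The 5 highest member pairs held 30.9% and 35.1% of the member counts in adults, against 58.5% and 50.4% in larvae. F275-R182 alone held 31.9% and 20.0% of the member counts in the larvae libraries. The median count of a member pair with reads was 9 and 5 in adults and 5 and 2 in larvae.

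Pair by pair, the stages were compared with the edgeR quasi-likelihood test, fitted on all pairs and adjusted over all of them (Benjamini-Hochberg, threshold 0.05). Of the 462 members, 16 passed the filter on low counts (83 others had reads but too few). Of these 16, adults were higher in 8 and larvae in 5, and 3 did not pass. Over all 679 tested pairs 70.1% were called, 46.1% as higher in adults and 24.0% as higher in larvae, and the members' shares of 50.0% and 31.2% lie near these. The CPM ranges of the stages did not overlap in the same 8 and 5 members, against 52.1% and 30.6% of all tested pairs. The median log2 change, adult minus larvae, was 1.45 over the 16 members and 1.08 over all tested pairs. It turned to -2.09 and -2.05 for the members without adult replicate 1 or 2, and was 5.98 and 2.53 without larvae replicate 1 or 2. Over all tested pairs it was 0.45 and 0.59, and 6.17 and 3.20, in these fits. The members tested also changed, to 18, 17, 22 and 29. A pair that passes the filter through one stage alone had to differ, so these counts are no support for a difference in the class as a whole. In 5 of the 8 adult-higher and 4 of the 5 larvae-higher members the other stage was at 0, and fold changes of these are given as lower bounds. They set the counts of both libraries over their summed totals against 3 counts over those of the stage at 0. Only the counting error of the stage at 0 is covered, not that of the stage with reads or the spread between libraries. A single library, or a full interval, can thus give a smaller fold.

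**Figure D2:**
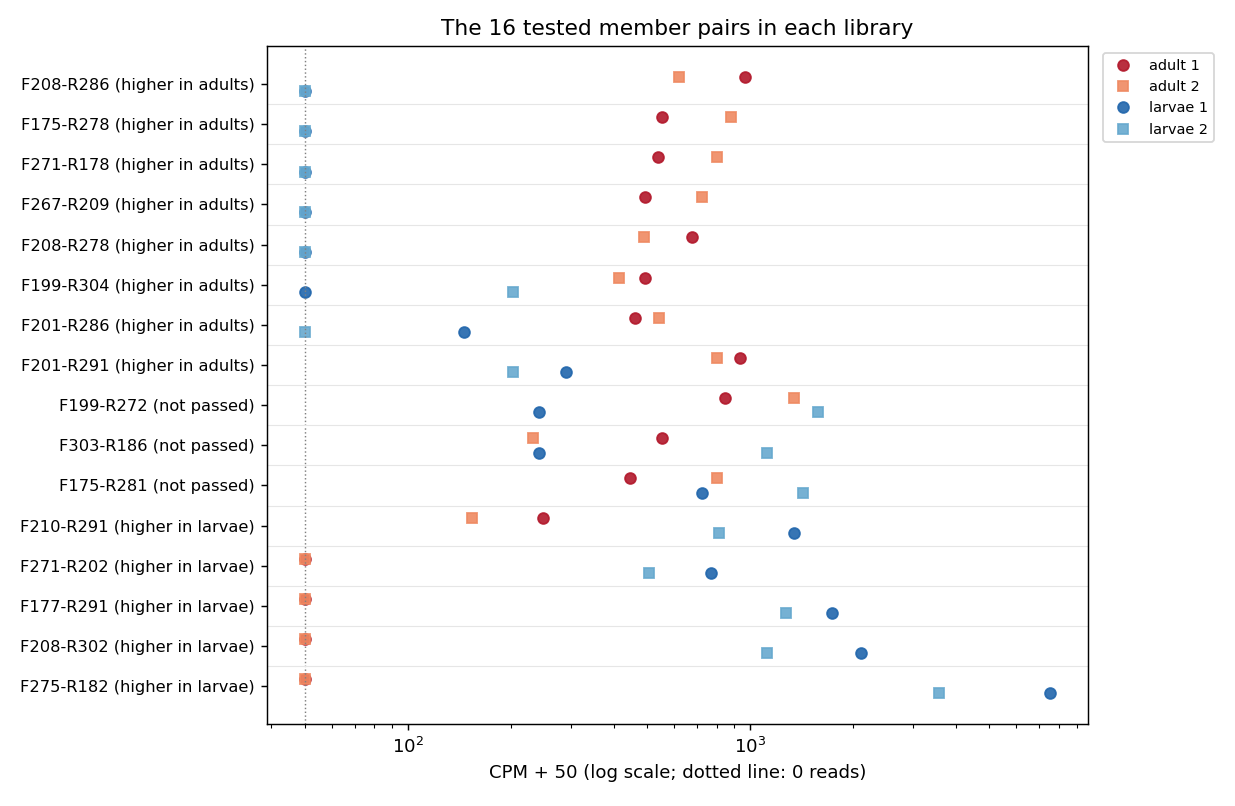
CPM + 50 (log scale) of the 16 tested member pairs in each library, with the result of the edgeR test beside the name, adult libraries drawn above larvae libraries in each row. The 5 pairs at the top and 4 of the 5 at the bottom have 0 reads in both libraries of one stage, and the 3 pairs that did not pass have overlapping stages.

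The strongest member in larvae was F275-R182, which joins 55999271 to 55999300 in the high flank to 55950359 to 55950388 in the window over 48.9 kb. It had 0 and 0 counts in adults, against 156 and 23 counts in larvae (7499.6 and 3517 CPM). Both larvae libraries were high and both adult libraries were empty. It was at least 227-fold higher in larvae (edgeR adjusted p = 2.1e-26). The adjusted p was 7.6e-08 with DESeq2 and 1.3e-05 (edgeR) with only pairs at least 5 kb apart, so its size depends on the fit. Within larvae F275-R182 made up 35.4% and 40.4% of all counts of F275, and 19.9% and 13.5% of all counts of R182.

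F208-R302 reached across 61.8 kb to 56021987 to 56022016, with 0 and 0 counts in adults and 43 and 7 counts in larvae, and was at least 63.4-fold higher in larvae (edgeR adjusted p = 7.9e-10). F177-R291 spanned 62.3 kb, with 0 and 0 counts in adults and 35 and 8 counts in larvae, at least 54.5-fold higher in larvae (edgeR adjusted p = 1.5e-09). F271-R202, at 40.0 kb, had 0 and 0 counts in adults and 15 and 3 counts in larvae, at least 22.8-fold higher in larvae (edgeR adjusted p = 5.68e-12). In each of these the groups did not overlap. F210-R291, at 48.4 kb, was the one larvae-higher member with adult reads, 13 and 4 counts in adults against 27 and 5 counts in larvae. In CPM this was 199 and 104 in adults and 1298 and 765 in larvae, a log2 change of -2.59 ± 0.78 (SE, n = 2 per stage, edgeR adjusted p = 0.00147). Both larvae libraries were above both adult libraries as CPM, though larvae replicate 2 had fewer raw counts than adult replicate 1.

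Among the adult-higher members, F208-R286 joined 55960233 to 55960262 to 56006373 to 56006402 over 46.1 kb. It had 60 and 22 counts in adults (917 and 572 CPM) and 0 and 0 counts in larvae, at least 7.19-fold higher in adults (edgeR adjusted p = 0.000157). F208-R278 had 41 and 17 counts in adults, and F175-R278 had 33 and 32, and both were at 0 in the larvae libraries. They were at least 5.09-fold and 5.70-fold higher in adults. F271-R178 had 32 and 29 counts in adults and F267-R209 had 29 and 26, with 0 in both larvae libraries, at least 5.35-fold and 4.82-fold higher in adults. The last 4 pairs each had an edgeR adjusted p of 0.000168. A count of 0 in both libraries allows up to 28.9 CPM in adults and 109.7 CPM in larvae, so adult-higher and larvae-higher bounds rest on different floors. In larvae replicate 2 alone 0 reads allow up to 459 CPM. This is above F267-R209 in adult replicate 1 (443 CPM) and F208-R278 in adult replicate 2 (442 CPM).

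The other 3 adult-higher members had a few larval reads. F201-R291 had 58 and 29 counts in adults and 5 and 1 in larvae (886 and 753 CPM, against 240 and 153 CPM), a log2 change of 2.09 ± 0.90 (SE, n = 2 per stage, edgeR adjusted p = 0.0313). F199-R304 had 29 and 14 counts in adults and 0 and 1 in larvae, a ratio of pooled CPM of 11.3 with a 95% counting interval of 1.92 to 457 (edgeR adjusted p = 0.00251). F201-R286 had 27 and 19 counts in adults and 2 and 0 in larvae, a ratio of 6.05 with an interval of 1.58 to 51.4 (edgeR adjusted p = 0.00881). In all 3 both adult libraries were above both larvae libraries. For F201-R286, 0 reads in larvae replicate 2 allow up to 459 CPM, above the 413 CPM of adult replicate 1, so that library cannot show the order.

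The remaining tested members were strong in both stages and did not pass. F199-R272, the second strongest by mean CPM, had 52 and 50 counts in adults and 4 and 10 in larvae. In CPM it had 794 and 1299 in adults and 192 and 1529 in larvae, so the larvae libraries lay on both sides of the adult ones (edgeR adjusted p = 0.335). F175-R281 had 26 and 29 counts in adults and 14 and 9 in larvae (adjusted p = 0.531, edgeR), and F303-R186 had 33 and 7 in adults and 4 and 7 in larvae (adjusted p = 0.841, edgeR). F199-R297 was the tenth by mean CPM, with 0 and 0 counts in adults and 25 and 1 in larvae, and was too low in larvae replicate 2 to be tested.

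Most of these calls were lost in a fit with 1 library left out, which leaves 1 library in a stage. The share called over all tested pairs also fell in each of these fits. The losses are thus not shown to be particular to the members. Of the 13 called members, F275-R182, F208-R302 and F177-R291 passed in every fit with 1 library left out that could test them, with adjusted p up to 8.5e-06, 0.00431 and 0.00531 (edgeR). These pairs had 0 counts in both adult libraries and entered the test through larvae alone, so passing again is no separate support for a difference. The pairs F208-R302, F177-R291 and F271-R202 could not be tested without larvae replicate 1. Nor could F208-R278 and F199-R304 without adult replicate 1, or F267-R209, F199-R304 and F201-R286 without adult replicate 2. A fit that could not test a pair is neither a pass nor a failure. Without larvae replicate 1 none of the 8 adult-higher members passed (edgeR adjusted p = 0.0666 to 0.435), nor did F210-R291 (0.238). Without adult replicate 1, F208-R286, F201-R286, F201-R291, F210-R291 and F271-R202 did not pass (edgeR adjusted p = 0.0795, 0.278, 0.235, 0.0840 and 0.0699). Without adult replicate 2, F175-R278, F208-R278, F271-R178, F201-R291, F210-R291 and F271-R202 did not pass (edgeR adjusted p = 0.166, 0.113, 0.174, 0.201, 0.262 and 0.107). Without larvae replicate 2, F201-R286 and F201-R291 did not pass (edgeR adjusted p = 0.0825 and 0.0530), while F199-R272 passed as higher in adults (0.00993). F201-R286 did not pass with DESeq2 (adjusted p = 0.0506), and F201-R291 did not pass with library totals in place of TMM factors (0.0516, edgeR) or among only pairs with reads in both stages (0.0604, edgeR).

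Many primers had reads with different partners in the 2 stages. Of the 61 primers of both ends, 38 had member reads in both stages, and 19 of these shared no partner between adults and larvae. A further 11 primers had member reads in adults only and 6 in larvae only, and 6 had none. No like count was made for the primers of other blocks. Pairs with reads in one stage only were near as common among other pairs of that distance (85.5%, members 86.9%). A change of partner is thus not shown to be particular to these primers. The pairs named in this paragraph and the next beyond the tested ones were chosen after their values were seen. F275 had 31 and 10 counts in adults with R178 (55948460 to 55948489) and 0 with R182, and in larvae 156 and 23 counts with R182 and 0 with R178. R178 and R182 are neighbouring reverse primers of the window. F208 had reads with 5 high-flank primers in adults, from R264 to R286, and in larvae it had reads with R302 alone. F271 met R178 in adults, and in larvae it met R202 (15 and 3 counts) and R194 (0 and 8 counts). F177 had 13 and 1 counts with R281 in adults and none with R291, and in larvae it had reads with R291 alone.

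Other primers kept a partner. R291 (56010349 to 56010378) had reads with F201 and F210 in both stages, and F199 with R272 in both. F175 met R281 in both stages, but met R278 and R297 (15 and 15 counts) in adults alone. F179 had the most partners, with reads in 8 pairs in adults and 8 in larvae, of which 2 were shared.

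Summed over all partners, single primers were also compared. For every primer of the matrices the counts with each of 5 blocks of the domain were summed, and the sums were tested together. Of the 61 sums of member pairs, 30 passed the filter on low counts. In these, adults were higher in 6 and larvae in 8, and 16 did not pass. Over all 597 tested sums 56.3% were called, 33.3% as higher in adults and 22.9% as higher in larvae, against 20.0% and 26.7% of the 30. The median log2 change was -0.20 over the 30 and 0.24 over all tested sums. Each read enters the sum of 1 forward and of 1 reverse primer, so sums from the 2 ends are not independent. Some sums also repeat 1 tested pair. All larval counts of the sums of F275, F177 and R302 came from F275-R182, F177-R291 and F208-R302. All adult counts of the sum of R209 came from F267-R209.

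The larvae-higher sums of window primers were led by R182, with 7 and 2 counts with the high flank in adults and 156 and 24 in larvae (log2 change -6.02 ± 0.54 SE, n = 2 per stage, edgeR adjusted p = 3.44e-25). Nearly all of its larval counts came from F275. F177 had 13 and 1 counts in adults and 35 and 8 in larvae (-3.52 ± 0.68 on the log2 scale, edgeR adjusted p = 2.01e-06). F210 had 14 and 5 counts in adults and 30 and 6 in larvae (-2.77 ± 0.66, edgeR adjusted p = 0.000106). R202 had 18 and 3 counts in adults and 28 and 5 in larvae (-2.54 ± 0.65, edgeR adjusted p = 0.000314). All 4 were higher in both larvae libraries as CPM.

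Among high-flank primers the larvae-higher sums included F275, with 31 and 10 counts with the window in adults and 156 and 23 in larvae (log2 change -3.90 ± 0.43 SE, edgeR adjusted p = 8.59e-17). R302 had 10 and 10 counts in adults and 43 and 7 in larvae (-3.04 ± 0.65, edgeR adjusted p = 1.69e-05). F275 as a whole had 132 and 72 counts in adults and 441 and 57 in larvae. In CPM this was 2017 and 1870 in adults and 21201 and 8717 in larvae. Its reads over all partners were thus higher in larvae too, and not only those with the window. The last 2 larvae-higher sums, F179 in the window (36 and 25 counts in adults, 43 and 8 in larvae) and R291 in the high flank (86 and 40 in adults, 67 and 14 in larvae), had larger values of p (edgeR adjusted p = 0.0133 and 0.0239). Of the counts of F275, 23.5% and 13.9% went to the window in adults and 35.4% and 40.4% in larvae.

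Adult-higher sums included 3 window primers. R178 had 63 and 39 counts with the high flank in adults and 0 in both larvae libraries (edgeR adjusted p = 1.97e-05). This primer was not silent in larvae, where it had 530 and 166 counts with all partners, so that its share with the high flank could be up to 0.566% and 1.81%. R209 (55961272 to 55961301) had 29 and 26 counts in adults and 0 in both larvae libraries, where it had 291 and 47 counts with all partners (edgeR adjusted p = 0.00012). F201 had 104 and 62 counts in adults and 16 and 1 in larvae (log2 change 1.49 ± 0.62 SE, edgeR adjusted p = 0.0312).

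The adult-higher high-flank primers were R278, F277 and F267. R278 (56003515 to 56003544) had 105 and 64 counts with the window in adults and 0 and 2 in larvae (edgeR adjusted p = 1.77e-05), and the window took 20.3% and 17.9% of all its counts in adults and 0% and 4.17% in larvae. F277 had 29 and 15 counts in adults and 0 in both larvae libraries (edgeR adjusted p = 0.000209). F267 had 41 and 33 counts in adults and 1 in each larvae library (edgeR adjusted p = 0.00263).

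With 1 library left out, the sums of R182, F275, R178 and R278 passed in every fit. Their log2 changes ran from -6.54 to -5.35, -4.32 to -3.17, 7.52 to 8.37 and 2.43 to 9.10. R178 had 0 counts in both larvae libraries, R278 had 0 and 2, and R182 had 7 and 2 in adults. These 3 entered the main test through the stage where they are high, so passing again is no separate support for a difference. The larval counts of R182 and F275 are nearly all from the same pair, F275-R182. Without adult replicate 1, R302, F210, R202, F267 and F201 did not pass (edgeR adjusted p = 0.109, 0.0931, 0.0652, 0.106 and 0.249). Without adult replicate 2, F177, F210, R202, F267 and F201 did not pass (edgeR adjusted p = 0.0759, 0.142, 0.249, 0.240 and 0.282). Without larvae replicate 1, R209, F277, R202 and F267 did not pass (edgeR adjusted p = 0.0697, 0.108, 0.113 and 0.163), and without larvae replicate 2, F201 did not (0.0547). The sum of F201 also missed the threshold with DESeq2 (adjusted p = 0.0815) and with only pairs at least 5 kb apart (0.0662, edgeR). The sum of R209 could not be tested without adult replicate 2, nor that of F277 without adult replicate 1 or without adult replicate 2.

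**Figure D3:**
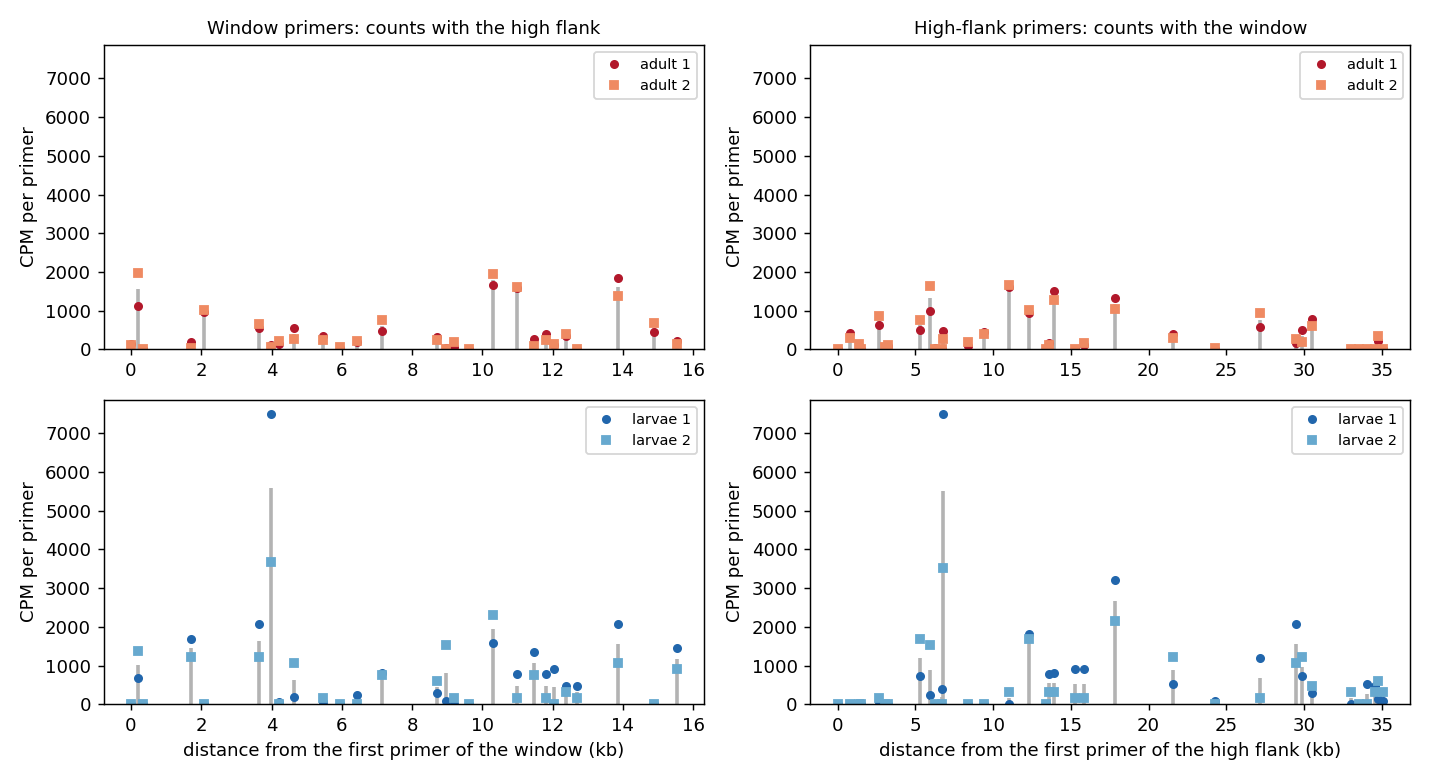
CPM of each window primer summed over the high flank (left) and of each high-flank primer summed over the window (right), in adults (top) and larvae (bottom). Points are libraries and grey bars are means of 2 libraries, and the tallest bar on each side in larvae is mostly the pair F275-R182 (7499.6 and 3517 CPM).

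Some well-used primers, named after their values were seen, had no member reads. R198 (55956018 to 55956047) had 4889 and 2726 counts with all partners in adults and 265 and 43 in larvae, and none with the high flank in any library. This allows a share of up to 0.0614% and 0.110% of its counts in adults, and 1.13% and 6.98% in larvae. F199, less than 1 kb away, had 108 and 75 counts with the high flank in adults and 33 and 15 in larvae. It is a forward primer and R198 a reverse primer, so they were read with different partners. R176 had 732 and 422 counts in adults and 403 and 127 in larvae, and again none with the high flank. In the high flank, F263, R266, R283 and R308 also had no reads with the window, but these were less used in adults. The least used, R266, had 61 and 43 counts with all partners in adults and 48 and 8 in larvae. Its share with the window could thus be up to 4.92% and 6.98% in adults, and 6.25% and 37.5% in larvae.

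Along the high flank, the stages differed in where the window's contacts fell. In the first 5 kb (55992481 to 55997480) there were 82 and 55 counts in adults, 0.125% and 0.143% of the libraries, against 1 and 1 in larvae, 0.00481% and 0.0153%. In the second 5 kb, which holds F275, the share was 0.252% and 0.322% in adults and 0.885% and 0.673% in larvae. Without F275-R182, left out after its values were seen, larvae had 0.136% and 0.322% there, so the gap between the stages rested on that pair. The third 5 kb (56002481 to 56007480) held the most member counts in adults, 276 and 156 (0.422% and 0.405%), against 71 and 17 in larvae (0.341% and 0.260%). The fourth had 0.144% and 0.119% in adults and 0.505% and 0.245% in larvae, and the sixth 0.122% and 0.138% in adults and 0.399% and 0.245% in larvae. Single pairs weighed on these bins too. F177-R291 gave 35 and 8 of the 105 and 16 larval counts in the fourth. F208-R302 gave 43 and 7 of the 83 and 16 in the sixth. Shares without these 2 pairs were not computed. The stages did not overlap in any of these bins with all pairs in, and none of the bins was tested.

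Along the window, the first 4 kb (55946389 to 55950388) held 0.309% and 0.382% of the libraries in adults and 1.19% and 0.749% in larvae. Without F275-R182 the larval values were 0.446% and 0.399%, still above both adult libraries. The second 4 kb held 0.171% and 0.171% in adults and 0.135% and 0.199% in larvae, and here the stages overlapped. The third held 0.432% and 0.429% in adults and 0.486% and 0.566% in larvae, and in the fourth the stages overlapped again (0.295% and 0.270% in adults, 0.538% and 0.245% in larvae). The largest mean levels per pair in adults were 104 and 98.6 CPM, where the first and the fourth 4 kb of the window meet the third 5 kb of the high flank. In larvae the same 2 fields had 88.6 and 0 CPM. The largest in larvae was 226 CPM, where the first 4 kb of the window meet the second 5 kb of the high flank, against 45.8 CPM in adults. F275-R182 gave 156 of the 162 and 23 of the 23 larval counts there.

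**Figure D4:**
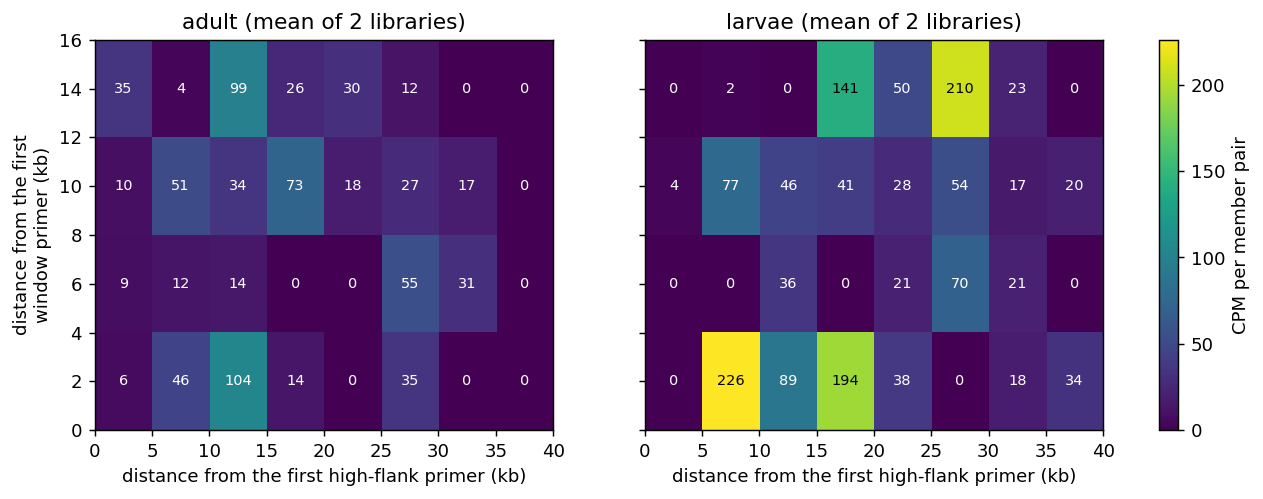
Mean CPM per member pair in fields of 4 kb of the window (vertical axis) by 5 kb of the high flank (horizontal axis), as the mean of 2 libraries, in adults (left) and larvae (right). The highest fields are 104 CPM in adults and 226 CPM in larvae, and they lie at different places.

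Member pairs had low CPM for their distance, other than in parts of the larval range. These values were not corrected for how often each primer was read with any partner, so they do not measure contact strength. At 30 to 40 kb the 60 members had 15.5 and 17.8 CPM per pair in adults and 12.8 and 10.2 in larvae. Other pairs at that distance had 94.2 and 94.8 CPM in adults and 85.1 and 91.2 in larvae, with the 3 strongest pairs of the matrices left out. At 40 to 50 kb the members had 35.7 and 36.6 CPM in adults and 79.5 and 51.0 in larvae, and without F275-R182 the larval values were 28.6 and 27.2. Other pairs had 75.0 and 72.2 CPM in adults and 66.9 and 51.5 in larvae. At 60 to 70 kb, where F208-R302 and F177-R291 lie, the members had 13.1 and 14.5 CPM in adults and 76.1 and 40.1 in larvae, beside 29.9 and 25.0 in adults and 44.6 and 37.6 in larvae for other pairs. At 50 to 60 kb the members had 36.4 and 34.0 CPM in larvae, beside 42.6 and 36.7 for other pairs. At 70 to 80 kb the members had 15.8 and 41.1 CPM in larvae, beside 46.6 and 43.8 for other pairs. In adults the members were below the other pairs in both of these classes. All these values are descriptions of each library with no test.

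**Figure D5:**
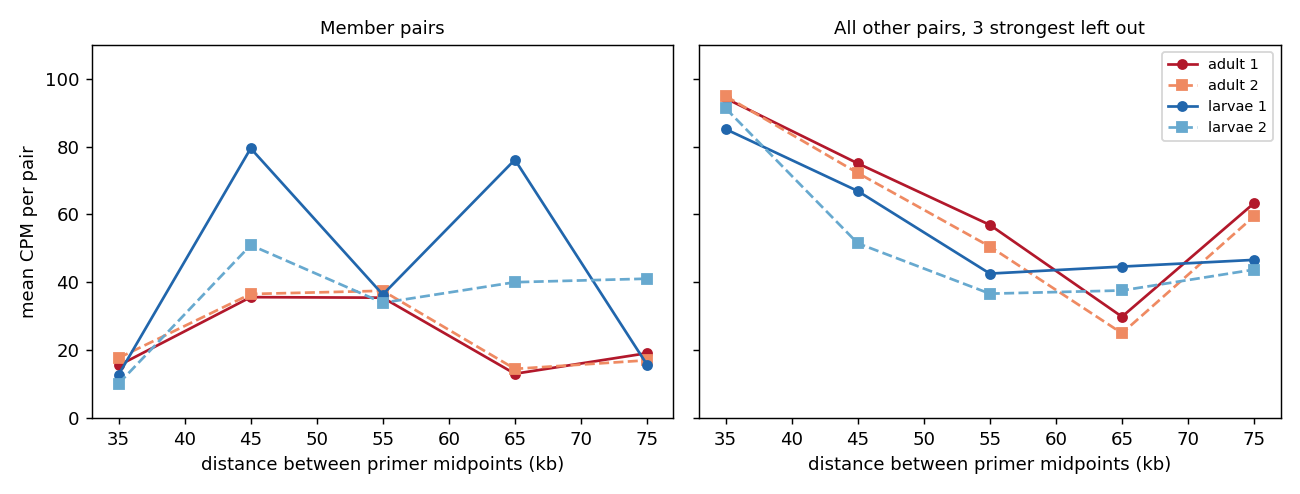
Mean CPM per pair in 10 kb classes of distance for the member pairs (left) and all other pairs without the 3 strongest (right), 1 line per library. Adult members lie below other pairs in each class. The larval peak at 40 to 50 kb holds F275-R182, and a peak of larvae replicate 1 at 60 to 70 kb holds F208-R302 and F177-R291. Larvae replicate 2 has no peak at 60 to 70 kb, with 40.1 CPM there and 41.1 CPM at 70 to 80 kb.

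The members at the limits of the rule had the following neighbours. The last primer before the window, F173, had 71 and 25 counts with the high flank in adults and 6 and 8 in larvae, and the first inside, R174, had 9 and 4 in adults and 0 in both larvae libraries. At the upper limit, F210 inside had 14 and 5 counts in adults and 30 and 6 in larvae, and R211 outside had 9 and 4 counts with the high flank in adults and 0 in both larvae libraries. F263, the first primer of the high flank, had none with the window, and R262, the last before it, had 65 and 20 counts with it in adults and 4 and 6 in larvae. At each limit a forward primer stands beside a reverse primer, and these share no partner. Their counts therefore cannot show a change at the limit itself.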

How the data were processed

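Each library came as 1 matrix of raw read counts per forward and reverse primer, as the authors deposited it. The tools named per the submitters' processing notes are Bowtie2 2.2.2 and bcl2fastq 1.8.4, with build danRer7, and primer positions come from the file headers. How a read was assigned to a pair, which enzyme cut the chromatin and what sequences the primers had were not found in the sources used here, and primers in near-identical globin gene copies could not be told from unique ones.

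All 6699 pairs, and separately the sums of each primer over 5 blocks, were tested with edgeR 4.0.16 (quasi-likelihood, TMM, R 4.3.3), stage as the only term, after filterByExpr (minimum count 10, minimum total 15). DESeq2 1.42.0 was an alternative. In simulated counts with 4-fold changes, the pair fit recovered 55.2% of 134 changed pairs among 617 tested.

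Named were the 10 members highest by mean CPM, up to 8 called pairs and 6 called sums with the smallest p in each direction. The members and lists were chosen with earlier results of these data known.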

Additional observations from a re-analysis of the deposited data

How the results depend on the processing

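The count of members called higher in adults (8) was 7 or 8 with library totals, DESeq2, only pairs at least 5 kb apart or without the 3 strongest pairs of the matrices. It was 27 of 99 tested without a filter on low counts, and 2 of 7 among only pairs with reads in both stages. With all libraries thinned to the smallest total it was 0 of 1. The count called higher in larvae (5) was 22, 1 and 1 under these same 3 settings. Over all 2508 pairs tested without a filter, 36.4% were called higher in adults and 17.0% in larvae. Over all 372 tested pairs with reads in both stages, these shares were 15.1% and 23.1%. Over all 120 pairs tested after thinning they were 34.2% and 33.3%. For primer sums, thinning left 1 adult-higher and 2 larvae-higher of 7 tested (6 and 8 of 30 before). Over all 295 sums tested after thinning, 25.4% were adult-higher and 23.1% larvae-higher. Without a filter 7 sums were adult-higher and 18 larvae-higher of 55 tested, against 31.1% and 20.5% of all 753 tested sums. With 1 library left out, the adult-higher pairs numbered 0 to 10, the larvae-higher pairs 1 to 9, the adult-higher sums 2 to 9 and the larvae-higher sums 4 to 12. These fits tested 17 to 29 member pairs and 32 to 37 sums, so their counts do not share one base. Deviations of libraries of equal replicate number had a correlation of r = 0.01 over 679 pairs. With counts this low, that value cannot decide whether equal numbers mark a shared origin. A replicate block in the fit gave 8 adult-higher and 5 larvae-higher pairs, and 5 and 7 sums. Over all tested features the block fit called 45.1% and 22.1% of pairs, and 29.8% and 17.3% of sums. Among named features the block ended the call of the F201 sum alone (adjusted p = 0.0576, edgeR). Of 280 refits of 28 named pairs and sums, 230 kept direction and side of the threshold, 43 lost the call, 1 gained it and 6 turned. All 6 that turned were uncalled pairs. F199-R272 (0.82) ran from -0.39 without larvae replicate 1 to 2.53 without larvae replicate 2. F303-R186 (-0.18) turned to 0.20 without a filter, 0.020 with only pairs at least 5 kb apart, 0.25 without the 3 strongest pairs, and 0.30 without adult replicate 2, and ran from -1.39 to 1.02 without larvae replicate 1 or 2. The cause was not tested. Over all tested pairs the log2 change had a median of 1.08, and of 0.91 with library totals and of 1.12 with DESeq2. The log2 ratio of the members' share, adult over larvae, was -0.74, and -0.30 without F275-R182. It was -0.97 with the 3 strongest pairs out of the total, -0.46 over pairs at least 20 kb apart, -0.56 after thinning, and -0.94 to -0.52 with 1 library left out. Leaving F275-R182 out of the share of high-flank and of window counts was added after seeing the data, and moved the log2 ratio to 0.37 and -1.08 (-0.03 and -1.49 before). For the second 5 kb of the high flank it turned the ratio to 0.33 (-1.44 before), and for the first 4 kb of the window it gave -0.29 (-1.49 before). With 1 library left out, the ratios for the share of high-flank and of window counts ran from -0.14 to 0.09 and from -1.56 to -1.41. Depth limits all values of larvae replicate 2, where 1 count is the reading of 17 member pairs.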

Other observations

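Among the 83 members with too few reads to be tested, 44 had reads in adults alone, 33 in larvae alone and 6 in both stages. They held 45.2% and 42.3% of the member counts in adults, against 37.6% and 35.7% in larvae. Several had reads in 1 larvae library only. F271-R194 had 0 and 8 counts in larvae replicates 1 and 2, although replicate 1 was the deeper library, and F309-R205 had 11 and 0, each with 0 in both adult libraries. F179-R286 (10 and 0 in larvae) and F201-R281 (8 and 0 in larvae) were also at 0 in adults. Others had reads in both adult libraries and 0 in larvae, such as F175-R297 with 15 and 15 counts (229 and 390 CPM) and F277-R191 with 11 and 12 counts (168 and 312 CPM).

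R293, at 56014054 to 56014083 in the high flank and named after its values were seen, had reads in 7 member pairs in larvae and in 2 in adults. In larvae F206-R293 had 6 and 2 counts, and each of the other pairs had 3 or fewer over both libraries. Its sum with the window was 26 and 11 counts in adults and 11 and 8 in larvae and did not pass (edgeR adjusted p = 0.137).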
